A study of Homo sapiens with 9 samples.

Results

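Metalloproteinases cut matrix and cell-surface proteins, and their genes and the genes of their inhibitors were compared here between PC3 and LNCaP cells and between LNCaP cells with and without androgen. The members were taken by symbol and not by any measured value, but with earlier results of these data known. They are 40 of the 28216 genes in the deposited table of counts: 16 matrix metalloproteinases (MMPs), 10 ADAMs, 9 ADAMTS genes, 4 tissue inhibitors of metalloproteinases (TIMPs) and RECK, an inhibitor anchored in the cell membrane.

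PC3 and LNCaP are established lines from prostate cancer metastases, PC3 from bone and LNCaP from a lymph node. Each group had 3 libraries. PC3 cells were untreated and grown in F12K medium, which the study supplemented with fetal bovine serum. LNCaP cells (clone FCG) spent 24 h in medium with charcoal-stripped serum and then 48 h with 10 nM dihydrotestosterone (DHT) or with vehicle (0.01% ethanol). The labels name DHT, whereas the main text of the study names R1881, a synthetic androgen. Each line is grown from 1 patient's tumour, and the media and the treatment of the serum differ. Line, medium and serum thus cannot be told apart in a comparison of PC3 with LNCaP cells. Nothing in the labels says that the 3 libraries of a group came from separate cultures, and the p-values measure only the spread between these libraries.

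MMPs are made as inactive precursors, and removal of the prodomain frees the zinc in the active site. Most are secreted, and a few sit in the plasma membrane through a transmembrane segment or a glycosylphosphatidylinositol (GPI) anchor. ADAMs are membrane proteins with a metalloproteinase and a disintegrin domain, and the catalytic ones shed the outer parts of growth factors, receptors and syndecans. ADAMTS enzymes are secreted and carry thrombospondin repeats that hold them in the matrix, where several cut proteoglycans. TIMPs bind the active site of these enzymes and block it.

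The libraries held between 17397706 and 25640325 counts on genes. Both lines carried their markers: the summed level of 5 LNCaP markers was 16.6 to 22.9 CPM (reads scaled to library size) in PC3, 8058 to 8840 CPM with DHT and 2840 to 3259 CPM with vehicle, and that of 5 PC3 markers was 3021 to 3135, 12.0 to 29.0 and 8.29 to 14.8 CPM. Of 6 fibroblast markers, the summed level was 37.6 to 48.3 CPM in PC3, 12.6 to 15.5 CPM with DHT and 22.9 to 26.5 CPM with vehicle. COL1A1 made most of it, at 33.3 to 40.7, 11.9 to 15.3 and 20.5 to 23.8 CPM, and COL1A2 was at 0 in both LNCaP groups. Leukocyte markers, 5 genes led by CD68, summed to 31.8 to 34.9, 15.9 to 22.2 and 1.73 to 2.36 CPM, and 4 endothelial markers to 6.02 to 8.26, 6.67 to 7.95 and 16.4 to 18.4 CPM. The endothelial sum was mainly VWF in LNCaP cells, at 6.63 to 7.95 CPM with DHT and 16.25 to 18.4 CPM with vehicle. In PC3 it was mainly KDR (3.04 to 5.35 CPM) and PECAM1 (1.85 to 3.36 CPM). The endothelial marker CDH5 and the T-cell marker CD3E were at 0 in every library. The part of these marker levels in the member differences was not tested, and in bulk RNA fewer expressing cells and less RNA per cell cannot be told apart. LNCaP libraries also differed in transcripts that are typical of PC3. Genes over 100 CPM in PC3 and under 0.5% of that level in the sister libraries summed to 0.567% of their PC3 level in DHT replicate 1 and to 0.311% in vehicle replicate 1, against 0.0835% to 0.129% in the other LNCaP libraries. The part of these transcripts in the lowest LNCaP values below was not tested, and each named fold that leaving out such a library moved by over 1.5 times is given also without it.

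Start sites of 22 of the 40 members were found in the RefSeq promoter table of GRCh38.p14. The 250 bases before the start are printed for 4 genes that differ between the lines: MMP7 and MMP10 from the MMP cluster on chromosome 11, which lie in opposite directions between PC3 and LNCaP, and MMP14 with the inhibitor TIMP1, which were both high in PC3. Capitals mark the AP-1 motif TGANTCA, the TATA box TATAAA and the GC box GGGCGG on either strand. The windows read 5′ to 3′ along the strand of the gene and are chr11:102530748-102530997 (minus strand), chr11:102780629-102780878 (minus strand), chr14:22836335-22836584 (plus strand) and chrX:47582186-47582435 (plus strand).
MMP7: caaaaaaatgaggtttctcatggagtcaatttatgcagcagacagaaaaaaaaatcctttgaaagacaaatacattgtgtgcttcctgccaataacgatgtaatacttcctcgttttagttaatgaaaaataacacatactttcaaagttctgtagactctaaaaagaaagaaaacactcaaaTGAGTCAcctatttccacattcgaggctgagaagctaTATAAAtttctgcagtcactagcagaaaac
MMP10: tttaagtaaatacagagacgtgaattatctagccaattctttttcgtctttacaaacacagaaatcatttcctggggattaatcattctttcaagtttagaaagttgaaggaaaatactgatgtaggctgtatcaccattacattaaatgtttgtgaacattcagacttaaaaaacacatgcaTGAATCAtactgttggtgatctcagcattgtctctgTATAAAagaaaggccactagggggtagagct
MMP14: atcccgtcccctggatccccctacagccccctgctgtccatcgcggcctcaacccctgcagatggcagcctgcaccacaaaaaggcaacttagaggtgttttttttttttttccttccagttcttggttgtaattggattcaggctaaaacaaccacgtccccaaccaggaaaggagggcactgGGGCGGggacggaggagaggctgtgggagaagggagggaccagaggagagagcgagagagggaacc
TIMP1: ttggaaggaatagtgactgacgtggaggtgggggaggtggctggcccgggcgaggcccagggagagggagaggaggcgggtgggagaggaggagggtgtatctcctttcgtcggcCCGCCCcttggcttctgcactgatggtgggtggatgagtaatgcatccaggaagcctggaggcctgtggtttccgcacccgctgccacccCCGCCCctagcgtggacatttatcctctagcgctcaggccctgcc
MMP7 and MMP10 each held an AP-1 motif that begins 67 bases before the start and a TATA box. MMP7 was higher in LNCaP and MMP10 in PC3 cells, and the part of these motifs in that was not tested. The MMP14 and TIMP1 windows held GC boxes and neither of the other motifs. Among the 34943 windows in the table, 6.59% held the AP-1 motif, 10.8% the TATA box and 42.5% the GC box. Of the 22 members with a window, 3 held the AP-1 motif (ADAMTS12, MMP10 and MMP7), 3 the TATA box (ADAMTS10, MMP10 and MMP7) and 18 the GC box. The androgen receptor half-site AGAACA stood in 12.4% of all windows and in those of MMP11 and MMP24. Some GC boxes share a base with the next one, as before ADAMTS7 and ADAMTS10, and a match is a run of letters and not a measured site.

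The groups differed in which members they expressed, as the heat map of levels by library shows. Levels of different genes are compared per kilobase (kb) of annotated exon. In PC3 the order was led by TIMP1 at 96.1 ± 18.1 CPM per kb (SD, n = 3), TIMP2 at 52.2 ± 2.97, ADAM15 at 39.5 ± 4.23 and MMP13 at 37.2 ± 15.3. ADAM15 and MMP13 differed by less than their spread, as did MMP1 (22.5 ± 2.84) and MMP14 (20.3 ± 1.73) after them. With DHT the order in LNCaP was ADAMTS1 at 87.3 ± 6.01 CPM per kb, ADAM9 at 49.8 ± 2.05, ADAM15 at 31.0 ± 0.329 and MMP15 at 23.2 ± 0.189, and these 4 levels lay further apart than their SDs. With vehicle it was ADAM15 at 45.5 ± 0.719 CPM per kb, followed by MMP16 (22.6 ± 2.26) and ADAMTS1 (22.2 ± 1.48), which differed by less than their spread, and by MMP15 (18.4 ± 0.251). The order depends on the length used: with the longest annotated transcript, ADAM9 at 125 CPM per kb led ADAMTS1 at 110 with DHT, and ADAM9 at 41.2 came after ADAM15 at 66.4 with vehicle.

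**Figure D1:**
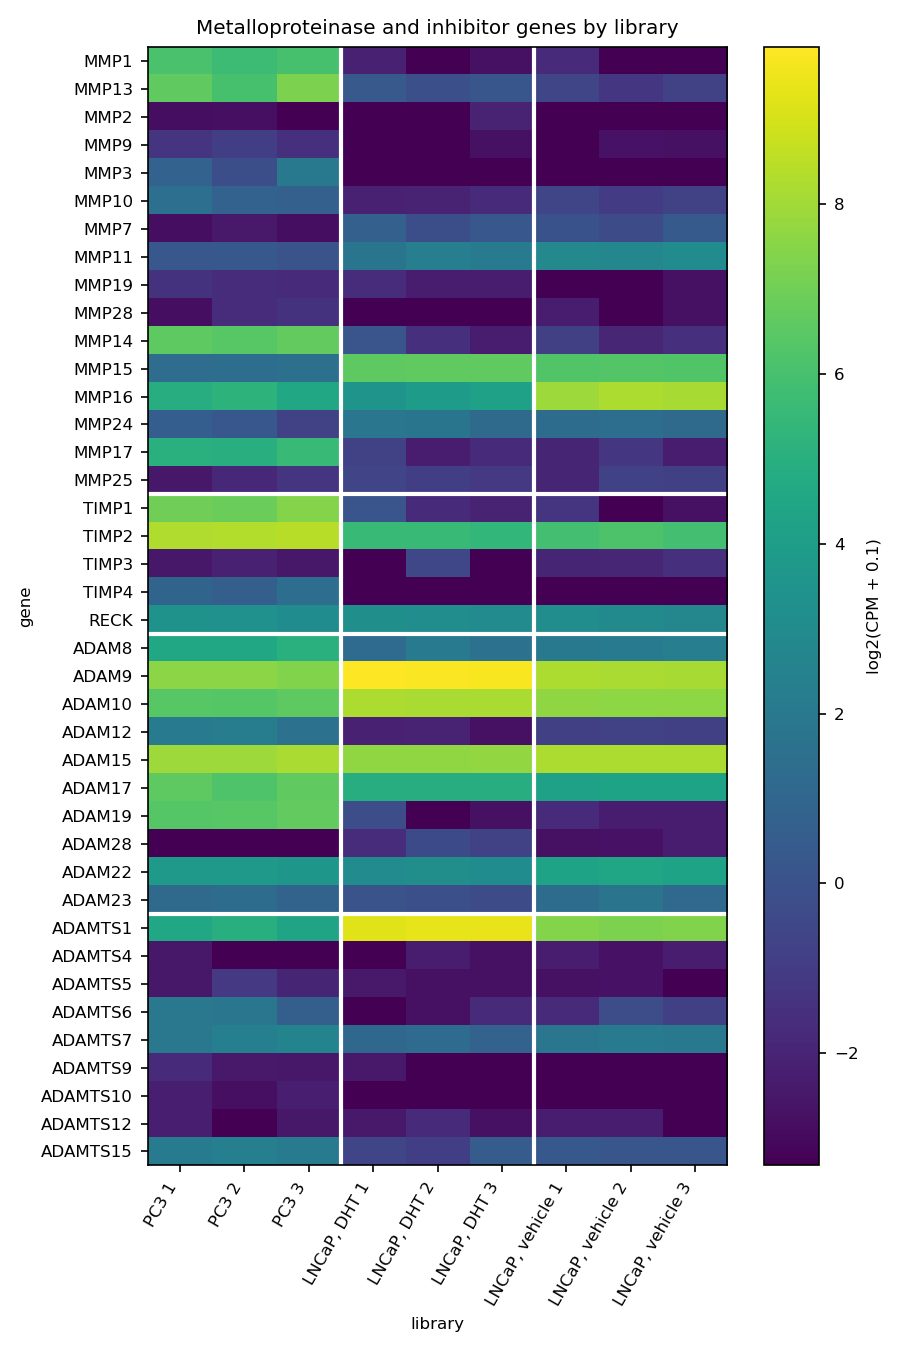
Level of each of the 40 members in the 9 libraries as log2(CPM + 0.1), with rows grouped into MMPs, inhibitors, ADAMs and ADAMTS genes and columns by group. MMP1, MMP13, MMP14, MMP17, TIMP1 and ADAM19 are bright in the PC3 columns and dark in the LNCaP columns, and ADAM9 and ADAMTS1 are brightest with DHT.

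A gene was tested where it exceeded 3 CPM in at least 3 libraries of a comparison, and it was called at an adjusted p below 0.05 together with a 2-fold or larger difference. Of the 40 members, 21 were tested in at least 1 comparison, 13 in all 3 comparisons and 19 in none. In 9 members no library exceeded 10 counts. The 3 comparisons share libraries in pairs, and their values stand side by side below without a test between them.

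PC3 had far more transcript of the collagenases MMP1 and MMP13, the membrane-type MMP14 and MMP17, TIMP1 and ADAM19 than LNCaP cells in either condition. The inhibitor TIMP2 and the sheddase ADAM17 were also higher in PC3, by smaller folds. LNCaP cells had more of the membrane-type MMP15, of ADAM10 and of ADAMTS1. Against DHT-treated LNCaP cells, 21 members were tested and 18 called, 13 higher and 5 lower in PC3, where 46.0% of all 12541 genes tested were called, 24.0% higher and 22.1% lower. Against vehicle-treated LNCaP cells, 21 were tested and 16 called, 11 higher and 5 lower, where 43.2% of 12686 genes were called, 22.2% higher and 21.0% lower. The median log2 fold change of the tested members was 1.60 against DHT and 2.08 against vehicle, beside 0.04 and 0.03 over all genes tested. These counts are no support for a difference of the group as a whole, because 12 of the 21 members tested against DHT-treated cells passed the filter through 1 group alone: 10 through PC3 and 2 through LNCaP. Of the 9 that passed it in both groups, 6 were called. Against vehicle-treated cells, 8 passed through PC3 alone, 2 through LNCaP alone and 11 in both, of which 6 were called. The plot of both contrasts shows the size and the standard error of each.

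**Figure D2:**
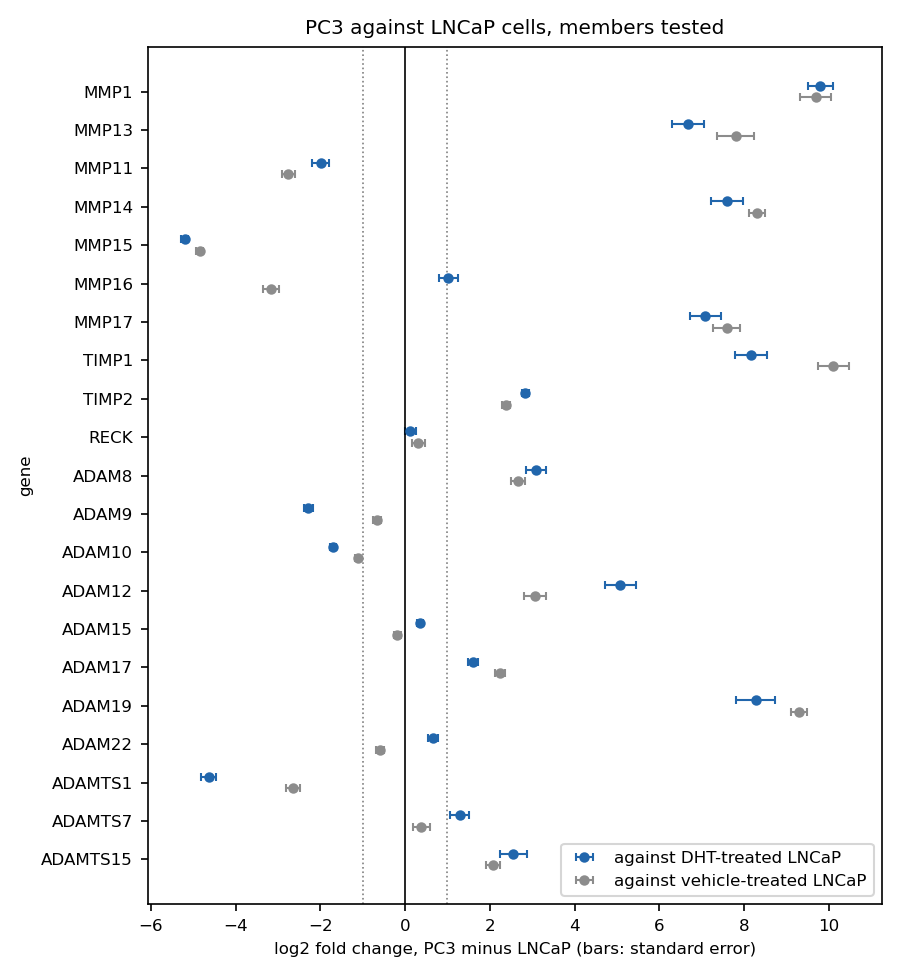
Log2 fold change of PC3 against DHT-treated (blue) and vehicle-treated (grey) LNCaP cells for the 21 members tested, with bars for the standard error, a solid line at 0 and dotted lines at a fold of 2. MMP1, MMP13, MMP14, MMP17, TIMP1 and ADAM19 lie above 6 in both contrasts, MMP15 and ADAMTS1 lie on the LNCaP side, and MMP16 changes side between the conditions.

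Both collagenases, the enzymes that make the opening cut in fibrillar collagen, were higher in PC3. MMP1 had 1721, 1214 and 1620 counts in the PC3 libraries, 3, 0 and 1 counts with DHT and 4, 0 and 0 counts with vehicle. No LNCaP library came near the PC3 range. The pooled ratio to DHT-treated cells was 964-fold with a 95% counting interval of 376 to 3541, and the adjusted p was 5.64e-08. Without DHT replicate 1 the ratio was 2477 (444 to 97868). Against vehicle it was higher by 9.68 ± 0.37 on the log2 scale, where the error is the standard error of the fit (adjusted p = 1.76e-07). Without vehicle replicate 1, which held all 4 vehicle counts, MMP1 was at least 388-fold higher in PC3, against a limit of 3 counts per library.

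MMP13, collagenase-3, reached 98.8, 65.5 and 151 CPM in PC3, 1.16, 0.839 and 1.06 CPM with DHT and 0.577, 0.329 and 0.508 CPM with vehicle. PC3 replicates were widely spread, and all of them lay far above LNCaP cells. On the log2 scale PC3 was higher by 6.67 ± 0.39 than with DHT (adjusted p = 1.21e-06) and by 7.80 ± 0.44 than with vehicle (adjusted p = 1.2e-06). In contrast to MMP1, the DHT-treated libraries held a similar small share of the PC3 mean of MMP13, 1.11%, 0.798% and 1.01%.

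MMP1 (chr11:102789401-102798160) and MMP13 (chr11:102942995-102955732, both GRCh38) lie in 1 cluster on chromosome 11 with MMP7, MMP10 and MMP3, all on the minus strand. The stromelysins MMP3 and MMP10, which cut proteoglycans and other non-collagen matrix and can activate other MMPs, were low and were not tested. MMP3 had 42, 18 and 99 counts in PC3 and 0 in every LNCaP library, so it was at least 14.6-fold higher than with DHT and at least 13.4-fold higher than with vehicle. MMP10 had 68, 39 and 39 counts in PC3, 3, 3 and 4 with DHT and 11, 7 and 10 with vehicle, and the 3 groups did not overlap in CPM. About 1.24% of the 74-base stretches of MMP3 and 1.33% of those of MMP10 are shared between these paralogs.

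Matrilysin, MMP7, is a small MMP and lacks the hemopexin domain of most others. It went the other way, with 1, 2 and 1 counts in PC3, 34, 16 and 22 with DHT and 17, 13 and 24 with vehicle. The ratio of DHT-treated LNCaP to PC3 was 21.3 (95% counting interval 7.95 to 80.1) and that of vehicle-treated LNCaP to PC3 was 17.5 (6.44 to 66.4). The LNCaP groups overlapped in CPM.

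Gelatinases, which digest denatured collagen and basement membrane, were close to 0. MMP2 had at most 3 counts in any library, which gives no fold. MMP9 had 8, 10 and 6 counts in PC3, 0, 0 and 1 with DHT and 0, 1 and 1 with vehicle, a ratio of 20.3 (3.31 to 836) to DHT and 9.28 (2.30 to 81.0) to vehicle. A difference in MMP2 was not detectable at this depth, where 3 counts correspond to 0.118 to 0.165 CPM.

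**Figure D3:**
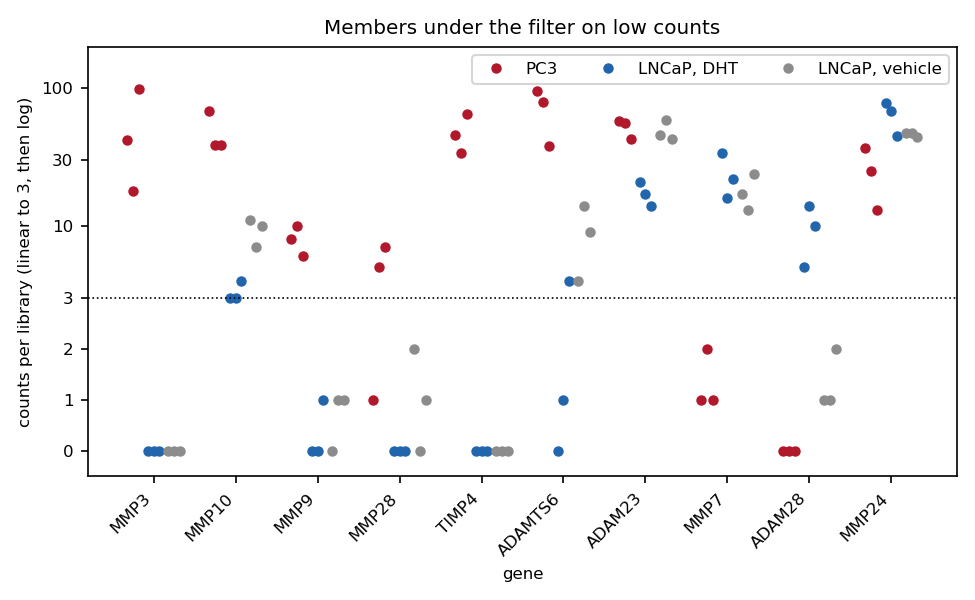
Counts per library of 10 members that were under the filter on low counts, on an axis that is linear to 3 counts and logarithmic above, with a dotted line at 3 counts. MMP3 and TIMP4 have counts in PC3 alone, MMP7 and ADAM28 are higher in LNCaP, and MMP24 has its fewest counts in PC3.

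Among the other secreted MMPs, MMP11 (stromelysin-3, activated by furin inside the cell) was lower in PC3. It reached 1.10, 1.13 and 0.948 CPM in PC3, 3.40, 4.94 and 4.44 CPM with DHT and 7.29, 6.70 and 7.97 CPM with vehicle. The 3 groups were separate, with PC3 lowest and vehicle highest. MMP11 had a log2 fold change of -1.99 ± 0.20 against DHT (adjusted p = 2.67e-05) and -2.76 ± 0.15 against vehicle (adjusted p = 1.06e-06). MMP19 had 5 to 7 counts in PC3, 2 to 5 with DHT and 0 to 1 with vehicle, a ratio of PC3 to vehicle of 13.1 (2.06 to 549). MMP28 had 1, 5 and 7 counts in PC3, 0 in every DHT library and 0 to 2 with vehicle. Its mean in PC3 was at least 1.23-fold higher than with DHT, though PC3 replicate 1 lay under the limit of 3 counts.

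The transmembrane MMPs differed in opposite directions. MMP14 (MT1-MMP), a collagenase at the cell surface that activates pro-MMP2 and pro-MMP13, was the leading one in PC3, with 94.8, 85.5 and 101 CPM. It had 1.03, 0.247 and 0.101 CPM with DHT and 0.472, 0.165 and 0.254 CPM with vehicle. Its difference on the log2 scale was 7.60 ± 0.37 against DHT (adjusted p = 5.04e-07) and 8.29 ± 0.19 against vehicle (adjusted p = 2.05e-08). DHT replicate 1 stood at 1.10% of the PC3 mean and the other DHT libraries at 0.263% and 0.107%, and the log2 fold change rose to 9.04 when it was left out.

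MMP15 (MT2-MMP), its close relative, was the member that was highest of the MMPs in DHT-treated LNCaP cells. It reached 97.3, 98.6 and 98.8 CPM with DHT, 77.8, 78.8 and 76.7 CPM with vehicle and only 2.52, 2.65 and 2.81 CPM in PC3. LNCaP replicates of each condition lay close to each other. MMP15 in PC3 stood at a log2 fold change of -5.20 ± 0.08 against DHT (adjusted p = 6.78e-09) and -4.84 ± 0.08 against vehicle (adjusted p = 1e-08).

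MMP16 (MT3-MMP) changed side with the androgen. Its level was 29.9, 37.0 and 22.95 CPM in PC3, 11.1, 15.5 and 18.3 CPM with DHT and 243, 295 and 282 CPM with vehicle. PC3 thus lay between the LNCaP conditions. PC3 had a log2 fold change of -3.16 ± 0.18 against vehicle (adjusted p = 1.31e-06) and 1.01 ± 0.22 against DHT (adjusted p = 0.00316). The latter lay at the fold limit of 2 and was not called without PC3 replicate 2 (0.82) or without DHT replicate 1 (0.85).

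MMP17, held in the membrane by a GPI anchor, reached 32.7, 31.8 and 48.3 CPM in PC3, 0.492, 0.0987 and 0.202 CPM with DHT and 0.157, 0.329 and 0.102 CPM with vehicle. The PC3 libraries were all far above both LNCaP groups. It differed on the log2 scale by 7.08 ± 0.36 against DHT (adjusted p = 6.01e-07), 7.94 without DHT replicate 1, and 7.59 ± 0.33 against vehicle (adjusted p = 2.96e-07). MMP25, the other GPI-anchored member, had 2 to 8 counts in PC3, 7 to 13 with DHT and 3 to 9 with vehicle. MMP24 (MT5-MMP) had 37, 25 and 13 counts in PC3, 78, 68 and 45 with DHT and 47, 47 and 44 with vehicle, and it was under the filter in each comparison.

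Summed per kb, the 16 MMPs reached 74.8 to 117 CPM per kb in PC3, 27.1 to 27.5 with DHT and 41.6 to 45.8 with vehicle. PC3 lay above both LNCaP groups on this scale. Without division by length, the summed CPM of PC3 (281 to 399) and of the vehicle group (333 to 386) overlapped. The stacked plot of levels per kb shows that this sum was made of different genes: MMP13, MMP1, MMP14 and MMP17 in PC3, MMP15 with DHT, and MMP16 beside MMP15 with vehicle.

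**Figure D4:**
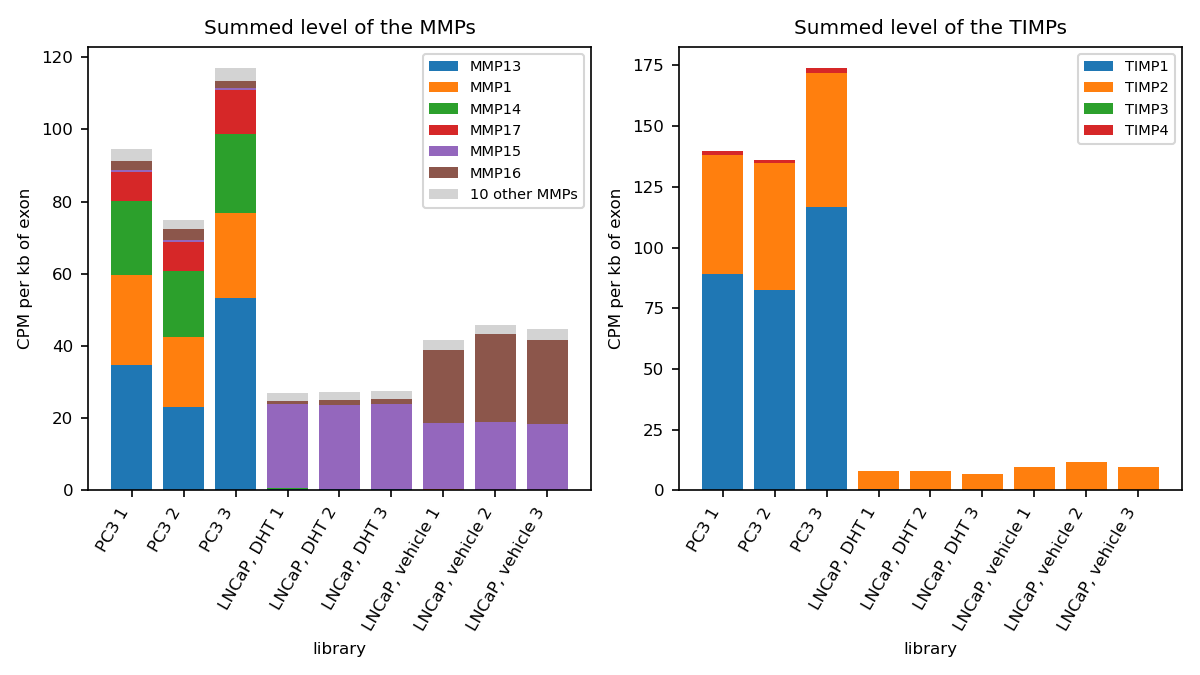
Stacked bars of CPM per kb of exon in each library, for the MMPs (left) and the TIMPs (right). The PC3 bars of the MMPs (74.8 to 117) are made mainly of MMP13, MMP1, MMP14 and MMP17 and the LNCaP bars of MMP15 and MMP16, and TIMP1 appears only in the PC3 bars at this scale.

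Of the inhibitors, TIMP1, TIMP2 and TIMP4 were higher in PC3, whereas TIMP3 and RECK were not. TIMP1, which blocks most secreted MMPs and ADAM10 and binds membrane-type MMPs weakly, reached 129, 119 and 169 CPM in PC3. Its counts were 23, 4 and 3 with DHT and 6, 0 and 1 with vehicle, so the LNCaP levels were at most 1.03 CPM. TIMP1 was higher on the log2 scale by 8.16 ± 0.38 against DHT (adjusted p = 3.81e-07) and 10.10 ± 0.36 against vehicle (adjusted p = 1.26e-07). DHT replicate 1 stood at 0.741% of the PC3 mean, and the fold without it was 9.61 on the log2 scale. Without vehicle replicate 1, the other vehicle libraries held 1 count and the ratio was 5289 with an interval of 949 to 208926.

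TIMP2, which blocks MMP2 and, at low amounts, takes part with MMP14 in activating it, was expressed in every group. Its level was 305, 325 and 342 CPM in PC3, 46.4, 47.7 and 42.1 CPM with DHT and 59.2, 72.2 and 59.6 CPM with vehicle. PC3 lay above both LNCaP groups, by a log2 fold change of 2.84 ± 0.08 against DHT (adjusted p = 4.69e-08) and 2.37 ± 0.09 against vehicle (adjusted p = 1.87e-07). About 2.36% of its 74-base stretches are shared with the overlapping gene CEP295NL.

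TIMP4 had 46, 34 and 65 counts in PC3 and 0 in every LNCaP library, and it was at least 13.5-fold higher than with DHT and at least 12.3-fold higher than with vehicle. TIMP3, the TIMP that binds the matrix and blocks ADAM17, had 2 to 3 counts in PC3 and 3 to 5 with vehicle. With DHT it had 12 counts in replicate 2 and 0 in the others. RECK was alike in level: 10.5, 9.91 and 8.38 CPM in PC3, 9.49, 8.84 and 8.07 CPM with DHT and 8.75, 7.90 and 6.86 CPM with vehicle. All 3 groups overlapped, and the log2 fold change was 0.13 ± 0.14 against DHT (adjusted p = 0.414) and 0.32 ± 0.14 against vehicle (adjusted p = 0.0728). The summed TIMP level was 136 to 174 CPM per kb in PC3, 6.89 to 8.18 with DHT and 9.68 to 11.7 with vehicle.

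The sheddases ADAM17 and ADAM10, which share many substrates, lay on opposite sides. ADAM17, which releases TNF and several ligands of the EGF receptor, reached 94.9, 73.3 and 100 CPM in PC3, 29.6, 29.4 and 29.3 CPM with DHT and 18.5, 19.6 and 19.6 CPM with vehicle. It was higher in PC3 by a log2 fold change of 1.60 ± 0.11 against DHT (adjusted p = 3.58e-06) and 2.24 ± 0.12 against vehicle (adjusted p = 7.89e-07). ADAM10, the sheddase of Notch receptors and E-cadherin, had 86.5, 83.8 and 96.8 CPM in PC3, 298, 292 and 284 CPM with DHT and 200, 197 and 192 CPM with vehicle. Its log2 fold change in PC3 was -1.71 ± 0.07 against DHT (adjusted p = 2.32e-07) and -1.12 ± 0.07 against vehicle (adjusted p = 1.51e-06).

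ADAM19, which sheds neuregulins, was a PC3 gene, with 82.9, 86.3 and 101 CPM there. Its counts were 17, 0 and 1 with DHT and 4, 2 and 2 with vehicle. On the log2 scale the difference was 8.27 ± 0.47 against DHT (adjusted p = 1.1e-06) and 9.29 ± 0.18 against vehicle (adjusted p = 1.36e-08). Without DHT replicate 1, which held 17 of its 18 counts, the ratio was 3618 (649 to 142936).

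ADAM8 and ADAM12 were also higher in PC3. ADAM8 reached 24.1, 23.8 and 33.3 CPM in PC3, 2.33, 4.24 and 3.02 CPM with DHT and 3.93, 4.17 and 4.88 CPM with vehicle. Its log2 fold change was 3.09 ± 0.23 against DHT (adjusted p = 4.78e-06) and 2.67 ± 0.17 against vehicle (adjusted p = 2.16e-06). ADAM12, a sheddase of HB-EGF, had 108, 105 and 77 counts in PC3, 3, 3 and 1 with DHT and 9 in each vehicle library. The ratio of PC3 to DHT was 35.1 (95% counting interval 16.8 to 88.0), and the log2 fold change against vehicle was 3.07 ± 0.25 (adjusted p = 1.06e-05).

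ADAM9, a widely expressed sheddase, was the ADAM with most counts in DHT-treated LNCaP cells. It reached 192, 191 and 161 CPM in PC3, 922, 874 and 851 CPM with DHT and 302, 289 and 283 CPM with vehicle. All 3 groups were separate. The log2 fold change of PC3 was -2.28 ± 0.10 against DHT (adjusted p = 2.99e-07) and -0.66 ± 0.09 against vehicle (adjusted p = 0.000186), and the latter was under the fold limit and not called.

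ADAM15, a membrane protein with an RGD motif that binds integrins, was not called in any comparison, although it was among the 3 highest members per kb in every group. Its level was 246, 242 and 292 CPM in PC3, 203, 203 and 207 CPM with DHT and 298, 295 and 305 CPM with vehicle. The log2 fold change of PC3 was 0.35 ± 0.08 against DHT (adjusted p = 0.00322) and -0.18 ± 0.08 against vehicle (adjusted p = 0.0619). ADAM28 had 0 counts in each PC3 library, 5, 14 and 10 with DHT and 1, 1 and 2 with vehicle, and it was at least 3.87-fold higher with DHT than in PC3.

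The non-catalytic ADAM22 and ADAM23, receptors of secreted LGI proteins, showed smaller differences. ADAM22 had 14.0, 13.6 and 12.4 CPM in PC3, 7.97, 9.13 and 8.32 CPM with DHT and 19.8, 21.6 and 19.7 CPM with vehicle. PC3 again lay between the LNCaP conditions, with a log2 fold change of 0.66 ± 0.11 against DHT (adjusted p = 0.000704) and -0.59 ± 0.09 against vehicle (adjusted p = 0.000565), neither of them called. ADAM23 had 58, 56 and 43 counts in PC3, 21, 17 and 14 with DHT and 46, 59 and 43 with vehicle. The 10 ADAMs summed to 75.4 to 87.4 CPM per kb in PC3, 101 to 105 with DHT and 77.8 to 78.8 with vehicle, so PC3 overlapped the vehicle group per kb, while the summed CPM without division by length did not (720 to 802 in PC3, 827 to 846 with vehicle).

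ADAMTS1, which cuts aggrecan and versican and inhibits angiogenesis through its thrombospondin repeats, was the ADAMTS gene of LNCaP cells. It reached 23.7, 32.0 and 20.9 CPM in PC3, 589, 648 and 675 CPM with DHT and 171, 150 and 165 CPM with vehicle. All 3 groups were separate. In PC3 the log2 fold change was -4.64 ± 0.17 against DHT (adjusted p = 1.45e-07) and -2.64 ± 0.16 against vehicle (adjusted p = 1.99e-06). ADAMTS1 and MMP16 were the 2 members called in all 3 comparisons.

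ADAMTS15, another enzyme that cuts versican and aggrecan, was higher in PC3, with 4.17, 5.04 and 4.42 CPM there, 0.582, 0.444 and 1.31 CPM with DHT and 1.15, 1.04 and 1.07 CPM with vehicle. Its log2 fold change was 2.55 ± 0.32 against DHT (adjusted p = 0.000111) and 2.08 ± 0.16 against vehicle (adjusted p = 7.13e-06). ADAMTS7 had 3.74, 5.09 and 6.08 CPM in PC3, 2.10, 2.32 and 1.66 CPM with DHT and 3.46, 4.28 and 3.91 CPM with vehicle, with a log2 fold change of 1.29 ± 0.23 against DHT (adjusted p = 0.000884) and 0.38 ± 0.20 against vehicle (adjusted p = 0.106). Its counts are uncertain, since 11.2% of its 74-base stretches also stand in the pseudogenes ADAMTS7P1, ADAMTS7P3 and ADAMTS7P4.

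ADAMTS6 had 95, 80 and 38 counts in PC3, 0, 1 and 4 with DHT and 4, 14 and 9 with vehicle. The aggrecanase ADAMTS5 had 2, 8 and 4 counts in PC3 and at most 2 in any LNCaP library, a ratio of 2.96 (0.931 to 12.4) to DHT and 5.41 (1.24 to 49.1) to vehicle. ADAMTS4, the other main aggrecanase, and ADAMTS10 had at most 3 counts in any library, ADAMTS12 at most 4 and ADAMTS9 at most 5. They were under the filter in each comparison. With no filter on low counts, ADAMTS10 was called higher in PC3 than in both LNCaP groups and ADAMTS9 higher than with vehicle. These calls rest on 7 and 9 counts summed over the PC3 libraries. ADAMTS4 and ADAMTS12 were not called there either. The 9 ADAMTS genes summed to 4.61 to 6.33 CPM per kb in PC3, 81.1 to 92.9 with DHT and 21.4 to 24.1 with vehicle.

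Within LNCaP cells, DHT raised ADAM9 and ADAMTS1 and lowered MMP16 and ADAM22. Of the 40 members, 13 were tested and 4 called, where 14.0% of all 11697 genes tested were called, 6.54% higher and 7.49% lower. Of the 13, 11 passed the filter in both conditions, and ADAM8 and ADAMTS7 passed it through vehicle alone. The other 9 stayed under the fold limit, 7 of them with an adjusted p under 0.05. The median log2 fold change of the 13 was -0.44, beside -0.01 over all genes tested.

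MMP16 had the strongest response, a fall of 18.4-fold from a mean of 273 CPM to 14.97 CPM, or -4.20 ± 0.12 on the log2 scale (adjusted p = 5.06e-12). None of the DHT libraries came near the vehicle range of 243 to 295 CPM. ADAM22 fell 2.40-fold (-1.26 ± 0.09 on the log2 scale, adjusted p = 2.17e-08). ADAMTS1 rose 3.93-fold (log2 fold change 1.98 ± 0.06, adjusted p = 5.63e-12) and ADAM9 rose 3.03-fold (1.60 ± 0.04, adjusted p = 4.87e-12). In each of these 4 genes, which were called on these same values, all 3 DHT libraries lay on the same side of all 3 vehicle libraries. How many of all genes do so was not determined.

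**Figure D5:**
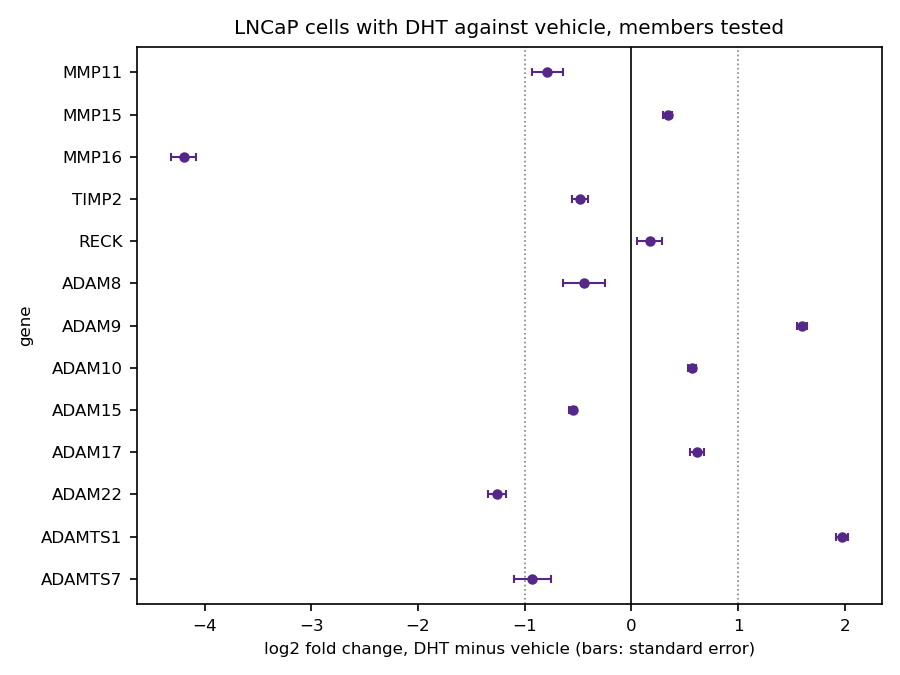
Log2 fold change of DHT-treated against vehicle-treated LNCaP cells for the 13 members tested, with bars for the standard error, a solid line at 0 and dotted lines at a fold of 2. MMP16 and ADAM22 lie below the lower dotted line, ADAM9 and ADAMTS1 above the upper one, and the other 9 between them.

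Smaller differences had an adjusted p under 0.05 without reaching the fold limit. ADAM17 and ADAM10 had log2 fold changes of 0.61 ± 0.06 (adjusted p = 1.07e-06) and 0.57 ± 0.04 (adjusted p = 2.28e-08), and MMP15 of 0.34 ± 0.04 (adjusted p = 3.58e-06). On the other side were ADAMTS7 with -0.93 ± 0.17 (adjusted p = 0.000272), MMP11 with -0.79 ± 0.14 (adjusted p = 0.000248), ADAM15 with -0.55 ± 0.03 (adjusted p = 1.13e-08) and TIMP2 with -0.48 ± 0.08 (adjusted p = 7.31e-05). ADAMTS7 was called without DHT replicate 2 (-1.03) or without vehicle replicate 1 (-1.004). RECK (0.17 ± 0.12, adjusted p = 0.201) and ADAM8 (-0.44 ± 0.20, adjusted p = 0.0554) did not pass the test, and their groups overlapped.

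Some members under the filter also separated the LNCaP conditions. ADAM28 was higher with DHT by a ratio of 6.62 (95% counting interval 2.32 to 25.9), and MMP19 by 8.22 (1.14 to 360). ADAM12 was higher with vehicle by a ratio of 4.23 (1.80 to 11.5). MMP10 and ADAM23 were higher in every vehicle library than in any DHT library, and MMP13 was higher in every DHT library. ADAMTS6 separated only through the scaling to library size. DHT replicate 3 and vehicle replicate 1 both held 4 counts of it (0.202 and 0.210 CPM). The share of all genes that separate the conditions in this way was not determined.

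The genes around these families were taken from 4 lists of related genes. Among all genes tested, 46.0% were called in PC3 against DHT, 43.2% in PC3 against vehicle and 14.0% between DHT and vehicle. The counts of the lists were not tested against these shares. Of 27 other metalloproteinase genes, 7 were tested in PC3 against DHT-treated LNCaP cells, with 4 higher and 1 lower in PC3. The same 7 were tested against vehicle, with 3 higher and 3 lower, and of the 4 tested between DHT and vehicle 1 was lower. TLL1, a protease of the BMP1 family that processes procollagen, fell with DHT from 39.5 ± 6.91 to 0.486 ± 0.124 CPM (SD, n = 3), a log2 fold change of -6.34 ± 0.20 (adjusted p = 1.65e-11), and it stood at 17.5 ± 4.71 CPM in PC3. Its log2 fold change of -1.14 in PC3 against vehicle was not called without PC3 replicate 3 (-0.96). TLL1 thus had the pattern of MMP16, with PC3 between the LNCaP conditions. ADAMTS3, a procollagen protease, had 112 to 130 counts in PC3, 1 to 4 with DHT and 3 to 11 with vehicle. ADAMTS20 was higher in PC3 than with vehicle, with a log2 fold change of 2.40 ± 0.21. ADAMTS13, the protease of von Willebrand factor, was lower in PC3, with a log2 fold change of -1.57 ± 0.24 against DHT and -1.64 ± 0.24 against vehicle.

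Of 7 ADAMTS-like genes, whose proteins keep the thrombospondin repeats without the protease, 3 were tested against DHT and all 3 were higher in PC3. Against vehicle 4 were tested, with 3 higher and 1 lower, and none of the 1 tested between DHT and vehicle was called. THSD4 reached 121 ± 38.2 CPM in PC3, 1.81 ± 0.0297 with DHT and 1.38 ± 0.109 with vehicle, and ADAMTSL3 21.4 ± 0.619, 0.443 ± 0.122 and 0.9504 ± 0.210 CPM. ADAMTSL4 was lower in PC3 than with vehicle, with a log2 fold change of -3.01 ± 0.18.

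Of 21 activators and regulators, 15 were tested against DHT with 6 higher and 3 lower in PC3, and 15 against vehicle with 7 higher and 2 lower. PLAU, the urokinase that makes plasmin, had 10868 to 15012 counts in PC3, 0 to 67 with DHT and 0 to 20 with vehicle, a ratio of 442 (351 to 565) and 1262 (841 to 1991). Its log2 fold change of 8.79 against DHT was 11.95 without DHT replicate 1, and that of 10.30 against vehicle was 12.58 without vehicle replicate 1. SPOCK3, a matrix proteoglycan, had 88 to 129 counts in PC3 and at most 1 in any LNCaP library, and it was at least 28.9-fold higher in PC3 than with vehicle. TSPAN14, a partner of ADAM10 at the cell surface, was at 0 in all PC3 libraries and had 1411 to 1662 counts in LNCaP libraries, which makes it at least 597-fold higher with DHT and at least 621-fold higher with vehicle. Other TSPAN genes of the list went the other way. TSPAN5 was higher in PC3 by a log2 fold change of 5.76 ± 0.18 against DHT and 5.33 ± 0.12 against vehicle. TSPAN15 was higher by 2.60 ± 0.09 and 2.07 ± 0.06, and TSPAN17 and TSPAN33 were not called. SPOCK1 was higher in PC3 than with vehicle by a log2 fold change of 5.30 ± 0.24. PCSK6, a proprotein convertase, had at most 1 count in any PC3 library against 603 to 712 with DHT and 972 to 1063 with vehicle.

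Between DHT and vehicle, 13 of these regulators were tested, with 2 higher and 0 lower. SPOCK1 rose by a log2 fold change of 4.51 ± 0.24 (adjusted p = 1.94e-09), and RHBDF1, a rhomboid-like protein that escorts ADAM17 to the surface, by 1.32 ± 0.06 (adjusted p = 4.27e-10).

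Of 25 proteins that these enzymes shed, 23 were tested against DHT with 12 higher and 5 lower in PC3, 23 against vehicle with 12 higher and 6 lower, and 18 between DHT and vehicle with 2 higher and 3 lower. SDC1, syndecan-1, the substrate that the study follows, reached 981 ± 353 CPM in PC3, 35.2 ± 4.01 with DHT and 62.8 ± 3.80 with vehicle (SD, n = 3). Its log2 fold change in PC3 was 4.80 ± 0.27 against DHT (adjusted p = 9.91e-07) and 3.98 ± 0.25 against vehicle (adjusted p = 1.99e-06). Between DHT and vehicle it was -0.83 ± 0.08 (adjusted p = 4.85e-07), under the fold limit.

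AREG, an EGF receptor ligand released by ADAM17, had 2872 to 5858 counts in PC3, 1 to 6 with DHT and 3 to 12 with vehicle, a ratio of 1417 (719 to 3284) and 493 (322 to 797). On the log2 scale its difference was 10.42 against DHT and 8.95 against vehicle, and 11.70 and 9.58 without the replicate 1 of either LNCaP group. MET, the receptor of hepatocyte growth factor, had 1055 ± 128 CPM in PC3, 2.09 ± 2.03 with DHT and 5.24 ± 1.57 with vehicle, and its log2 fold change of 8.93 against DHT was 10.17 without DHT replicate 1. CD44, a hyaluronan receptor, was higher than with vehicle by a log2 fold change of 9.26 ± 0.28, or 9.97 without vehicle replicate 1. CDH1, E-cadherin, a substrate of ADAM10, was lower in PC3, with 11.3 ± 2.07 CPM against 657 ± 37.1 and 549 ± 13.2 CPM. DLL1, a Notch ligand, was lower in PC3 by a log2 fold change of -3.86 ± 0.28 against DHT and -3.70 ± 0.28 against vehicle. With DHT, JAG1, another Notch ligand, rose by a log2 fold change of 1.96 ± 0.06 and APP, the amyloid precursor protein, by 1.77 ± 0.05. SDC4, syndecan-4, fell by 1.42 on the log2 scale. MET had a log2 fold change of -1.28 ± 0.43 with DHT (adjusted p = 0.017), which was -2.51 without DHT replicate 1. It was not called without DHT replicate 2 (-0.94), DHT replicate 3 (-0.92) or vehicle replicate 1, where its adjusted p missed the threshold at a log2 fold change of -1.05.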

How the data were processed

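RNA from 9 libraries (3 of PC3, 3 of LNCaP with DHT, 3 of LNCaP with vehicle) was sequenced as 74-nt single-end reads from poly(A) libraries. According to the submitters' processing notes, the authors trimmed adapters with cutadapt 4.1, aligned to hg38 with STAR 2.7.7a and removed PCR duplicates with UMI-tools 1.1.2. The authors deposited counts, whole reads per gene without normalization, in a table of 28216 genes and also in STAR's file for every library. The table holds the forward-strand numbers of those files in all of its 253944 values, and the opposite strand took no more than 3.06% of reads on genes. Reads on no gene (20.3% to 25.4%) stayed out of all totals.

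The members and the gene lists were chosen with earlier results of these data known. Every member is accounted for: those called in a comparison were named with library values, and from each list of related genes the 2 largest rises and 2 largest falls called in a comparison were named, and SDC1 always. The other TSPAN genes tested were named beside TSPAN14. Gene positions and lengths come from GENCODE 44 on GRCh38, which held 91.1% of the symbols, and sequences from RefSeq promoters on GRCh38.p14. All 74-nt stretches of member transcripts were searched in transcripts of other genes.

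The 6 libraries of a comparison were fitted alone with edgeR 4.0.16 in R 4.3.3 (TMM factors, quasi-likelihood F test, Benjamini-Hochberg adjustment over all genes tested). A gene was tested at over 3 CPM in at least 3 libraries of the fit and called at an adjusted p below 0.05 together with a 2-fold or larger difference. The study's own likelihood ratio test had a batch term whose batches its text does not name, and the term was left out. The scripts were tested on simulated data. CPM of single genes use TMM factors over all 9 libraries. Where a group had at most 3 counts in every library, a ratio of pooled counts with an exact 95% interval was given, and where it had 0 in each, a lower bound against 3 counts per library (0.118 to 0.165 CPM). Intervals cover counting error only. A bound divides the mean CPM of the higher group by this limit and leaves out the spread and counting error of that group.

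Alternatives were DESeq2 size factors, the DESeq2 1.42.0 Wald test, edgeR's likelihood ratio test, the replicate block with either edgeR test, other filters, the adjusted p-value alone, unstranded counts, all libraries in 1 fit, another gene length, pooled limits for 0 counts, and each library left out in turn with the tested genes kept as they were. Replicate numbers are shared by the groups. Deviations from the group means correlated between DHT and vehicle libraries of the same number by 0.16 to 0.23, each above 0.1, and between different numbers by -0.25 to 0.09, so that the numbers were taken to pair the LNCaP libraries, on the evidence of the counts. In the counts, no such sign was seen with PC3 (-0.19 to 0.07), and the main fits paired no libraries. No replicates differed by less than sampling noise. Size factors in place of TMM factors shifted the median of all genes by under 0.1 on the log2 scale.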

Additional observations from a re-analysis of the deposited data

How the results depend on the processing

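Of the tested members, 821 of the recomputed fold changes kept their direction and their call by both thresholds together, 2 fell under the fold limit (MMP16 in PC3 against DHT without PC3 replicate 2 or DHT replicate 1) and 2 passed it (ADAMTS7 with DHT without DHT replicate 2 or vehicle replicate 1), and none reversed. In 10 of those 821, of 4 members under the fold limit, the adjusted p-value alone passed to the other side of its threshold (0.000318 to 0.0203 for ADAM15, 0.0232 for ADAMTS7 and 0.0152 to 0.0472 for RECK in PC3 against vehicle, 0.00381 to 0.0294 for ADAM8 with DHT; edgeR). With no filter on low counts, 29, 11 and 27 members were called (PC3 against DHT, DHT against vehicle, PC3 against vehicle) in place of 18, 4 and 16, and 9147, 2941 and 8713 of all genes in place of 5773, 1641 and 5485, since more genes were then tested. With at least 10 counts in every library of a group the members called were 25 of 28, 6 of 18 and 22 of 28 tested, beside 7603 of 15061, 2351 of 13811 and 7222 of 15117 of all genes tested. By the adjusted p-value alone, 11 members were called between DHT and vehicle, and 10530, 8763 and 10577 of all genes in the 3 comparisons. When single libraries were left out, the members called ranged from 17 to 18, from 4 to 5 and from 16 to 16, and all genes from 5717 to 5830, from 1601 to 1686 and from 5415 to 5616. The replicate block left 18, 4 and 16 members and 5756, 1638 and 5495 of all genes called and changed no member's call. With all 9 libraries in 1 fit, ADAM12 was added to the members called between DHT and vehicle. Pooled counts in place of 3 counts per library raised the lower bounds, for MMP3 in PC3 against DHT from 14.6-fold to 36.1-fold. Depth limits the 9 members with at most 10 counts in any library.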

Other observations

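At some members the other strand held more reads than their own. At MMP24, up to 732 reads in a DHT library lay on the other strand, where MMP24OS is annotated, against at most 78 on the strand of MMP24. At MMP19, up to 289 reads lay on the other strand, where TMEM198B is annotated, against at most 7 on its own. At MMP25, up to 60 reads in a DHT library lay on the other strand, where MMP25-AS1 is annotated, against at most 13 on its own. At MMP9, up to 17 reads in a PC3 library lay on the other strand, against at most 10 on its own in PC3.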
